A study of Saccharomyces cerevisiae with 4 samples.

Results

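The spore surface and glucan layer genes are 10 sporulation genes of budding yeast, among 6002 protein-coding genes on the 16 nuclear chromosomes. They were chosen by name, with earlier results of these data known. They comprise the glucan synthase genes GSC2 and FKS3, the glucan remodelling genes GAS2, GAS4 and SPR1, the spore wall genes SPS2 and SPS22, and SPS4, SPS19 and SPO19. Their occupancy by Hst1 and Sir2, related NAD+-dependent histone deacetylases, was read from ChIP-seq peak lists (sequencing of DNA recovered with an immunoprecipitated protein). The groups were an IP from a strain with HA-tagged Hst1 (LRY0558), an IP from a strain with HA-tagged Sir2 (LRY1926), a mock IP with the same anti-HA antibody from the parental strain (LRY1009), and a genomic input from that parent, which was not analysed here. All cultures were vegetative, in early log phase in a rich glucose medium at 30 °C, so the 10 genes were examined outside sporulation. Whether tagging alters either protein is not stated.

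During sporulation each haploid nucleus is enclosed in a prospore membrane, inside which a multilayered wall is built. Its inner layers are mannan and beta-1,3-glucan, and its outer layers are chitosan and dityrosine. Middle sporulation genes, which include many wall genes, are kept off in vegetative cells by the DNA-binding repressor Sum1, with which Hst1 works, and are switched on in meiosis by Ndt80, which binds an overlapping DNA element. Sir2 silences the mating loci, chromosome ends and ribosomal DNA.

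Each IP had 1 peak list, with 692 peaks for Hst1, 159 for Sir2 and 3 for the mock IP. Fold is the authors' enrichment at the peak summit over the caller's local background, and it is compared here within a list only. Read counts are not part of the lists, so the depth is unknown, and without replicate lists no difference below carries an error or a test. A gene without a listed peak may still hold signal under the cutoff of the caller. Of the Hst1 and Sir2 peaks, 0 overlapped a mock IP peak.

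An Hst1 summit lay upstream of or inside 7 of the 10 genes. SPS22, SPS4, SPS19 and GAS2 had a summit within 500 bp upstream of the annotated start, which is the first base of the coding region. SPS2, GSC2 and SPO19 had a summit inside the gene body, and GAS4, FKS3 and SPR1 had none. An upstream Hst1 summit was thus found at 4 of the 10 (40.0%), against 8.41% of all genes, and one upstream or in the body at 7 of the 10 (70.0%), against 10.2% of all genes. Sir2 had a summit upstream or in the body of 0 of the 10, where it had one at 1.4% of all genes, and it had an upstream one at 0 of the 10 and 0.467% of all genes. The mock IP had a summit at 0 of the 10 (0.05% of all genes). Counting any part of a peak left these numbers at 7, 0 and 0, beside 14.6%, 2.8% and 0.0666% of all genes.

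**Figure D1:**
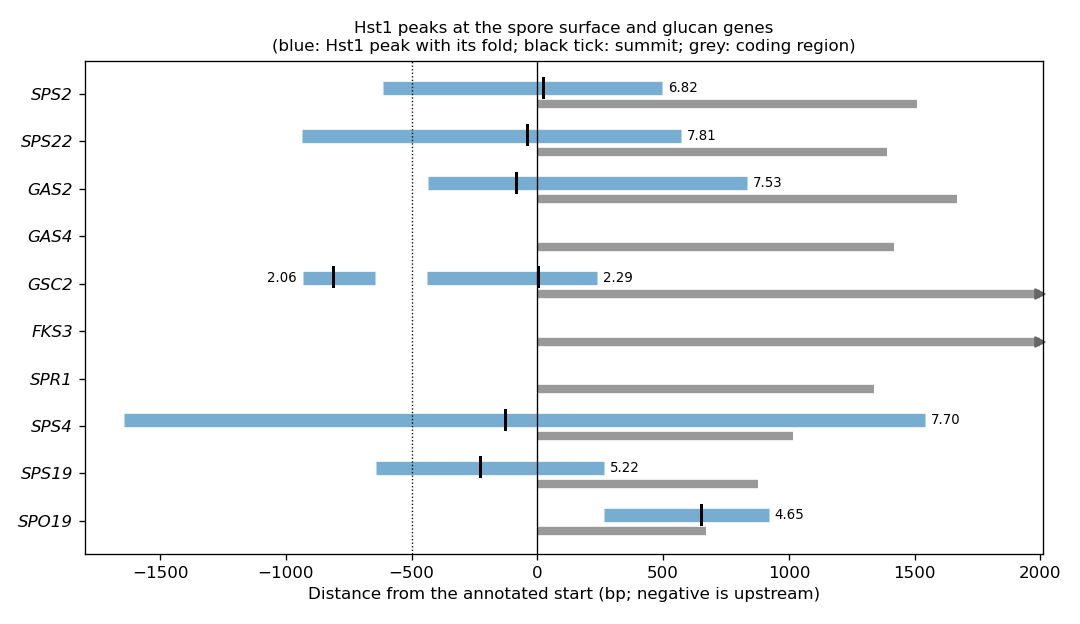
Hst1 peaks (blue bars, with the authors' fold) and their summits (black ticks) along each of the 10 genes, drawn by distance from the annotated start in bp, with the coding region in grey (cut at 2000 bp and marked by an arrowhead) and 500 bp upstream as a dotted line. Of the peaks drawn, those at SPS2, SPS22, GAS2, SPS4, SPS19 and 1 of the pair at GSC2 span the start, the peak at SPO19 sits over the end of the gene, and GAS4, FKS3 and SPR1 have no peak.

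SPS2 and SPS22 encode related cell surface proteins that act redundantly in forming the glucan layer of the spore wall. Both carried a strong Hst1 peak across the start. At SPS22 (YCL048W; III, 42165 to 43556 in sacCer3) the peak ran from 41227 to 42736 with its summit 40 bp upstream of the start. It had a fold of 7.81, which ranked 12 of 692, and its −log10 q was 182. At SPS2 (YDR522C; IV, 1483795 to 1485303) the peak ran from 1484808 to 1485916 with its summit 22 bp inside the coding region. Its fold was 6.82, which ranked 27, and its −log10 q was 141. The summits of the pair fell on opposite sides of the start, so that SPS22 counts as having an upstream summit and SPS2 does not. With 1 list, whether their folds differ beyond error cannot be said. All 500 bp upstream were covered at both genes, with 41.1% of the SPS22 body and 32.9% of the SPS2 body. SPS2 lies 262 bp from its tandem neighbour SPS1, a spore wall kinase gene, which had a separate Hst1 summit 305 bp upstream of its own start with a fold of 4.42. Their vegetative relatives ECM33 and PST1, which encode cell wall proteins of the same family, had no Hst1 summit upstream or in the body. A peak edge covered 241 bp upstream of ECM33, and PST1 had 0 bp.

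GAS2 and GAS4 encode sporulation-specific beta-1,3-glucanosyltransferases, enzymes that lengthen glucan chains, and only GAS2 of the pair had a listed Hst1 peak. GAS2 (YLR343W; XII, 816094 to 817761) had a peak from 815659 to 816927 with its summit 87 bp upstream, and its fold of 7.53 ranked 15, with a −log10 q of 153. It covered 435 bp (87.0%) of the upstream stretch and 834 bp (50.0%) of the body. GAS4 (YOL132W; XV, 71300 to 72715) had 0 bp covered, and the nearest Hst1 peak, with a fold of 1.72, was 10.4 kb away from its upstream stretch and body. The gene before GAS2 and the small YLR342W-A is FKS1, which encodes the main vegetative glucan synthase, and FKS1 had 0 bp covered upstream and in its body. The vegetative glucanosyltransferase genes GAS1, GAS3 and GAS5 also had 0 bp covered by Hst1.

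FKS3 and GSC2 belong to the glucan synthase family. GSC2, also called FKS2, encodes a synthase subunit used under stress and in sporulation, and FKS3 is a relative needed for normal spore wall assembly. GSC2 (YGR032W; VII, 548264 to 553951) had the weakest peak of the 7, from 547826 to 548500, with its summit 3 bp inside the coding region. The fold was 2.29 and the −log10 q 16.2. That fold ranked 316 and was higher than that of 54.3% of the Hst1 list, so near its middle. The peak covered 438 bp upstream (87.6%) and 4.17% of the long body. A further Hst1 peak (547331 to 547618, fold 2.06, −log10 q 8.62) had its summit 814 bp upstream, outside the 500 bp and inside the neighbouring gene IMO32. FKS3 (YMR306W; XIII, 881159 to 886516) had 0 bp covered, with the nearest Hst1 peak, of fold 2.62, at 9.1 kb. Its neighbours, SCW10 on the upstream side and the vegetative gene GAS1 on the downstream side, are themselves genes of the vegetative wall, and GAS1 had no Hst1 peak either.

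SPR1 (YOR190W; XV, 690695 to 692032), which encodes a sporulation-specific exo-1,3-beta-glucanase, was the remaining gene without a listed Hst1 peak, and the nearest one (fold 3.25) was 10.9 kb away. Its vegetative relatives EXG1 and EXG2 had no summit, with 202 bp covered upstream of EXG1 and 0 bp at EXG2. For GAS4, FKS3 and SPR1 the nearest Hst1 peak thus lay 9.1 to 10.9 kb away, and among the 5121 other genes without an Hst1 peak the median distance was 7.04 kb (interquartile range 2.83 to 15.2 kb).

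SPS4, a gene of unknown function expressed in sporulation, had the longest peak of the 7. SPS4 (YOR313C; XV, 901858 to 902874) lay wholly inside a peak of 3185 bp (901333 to 904517), the second longest of the Hst1 list, and its fold of 7.70 ranked 14, with a −log10 q of 186. Its summit was 127 bp upstream of SPS4 and 42 bp upstream of the divergent gene YOR314W. SPS19, which encodes a peroxisomal 2,4-dienoyl-CoA reductase of fatty acid breakdown, shares a 300 bp gap with SPS18, a further sporulation gene transcribed the other way. The peak there (XIV, 258937 to 259841) had a fold of 5.22, which ranked 60, and a −log10 q of 77.9. Its summit was 230 bp upstream of SPS19 (YNL202W; 259578 to 260456) and 71 bp upstream of SPS18, and the list alone does not assign it to either.

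SPO19, which encodes a prospore surface protein of meiosis, had Hst1 over its end and not in front of its start. The peak (XVI, 304652 to 305306, fold 4.65, −log10 q 61.8, rank 78) covered 407 bp (60.6%) of the SPO19 body (YPL130W; 304387 to 305058) and 0 bp of its upstream stretch. The summit lay 649 bp into SPO19 and 262 bp upstream of the next gene, TAF14, which encodes a subunit of several transcription complexes. A summit inside SPO19 is therefore also one in front of TAF14, and the list alone does not assign it to either.

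Most of the 7 peaks were high in the Hst1 list. Their folds ran from 2.29 to 7.81 with a median of 6.82, and the 685 other Hst1 peaks had a median of 2.21 (interquartile range 1.88 to 3.12). Of the 7, 6 ranked among the first 78 of 692, and GSC2 stood apart from them. A high fold was not particular to these genes. Peaks with a summit at the 30 other spore genes ran from a fold of 1.73 (LDS2, rank 607) to 8.57 (SMK1, rank 3), which is above every member. With the Hst1 list cut to the 159 peaks of highest fold (the length of the Sir2 list; this setting was added once the peaks were known), 6 of the 10 genes still had a summit and GSC2 did not. The share of all genes under that cut was not counted. The 7 peaks were also long, with a median of 1109 bp (655 to 3185 bp) against 400.0 bp for the other Hst1 peaks. Lengths of the peaks at other spore genes were not compared.

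**Figure D2:**
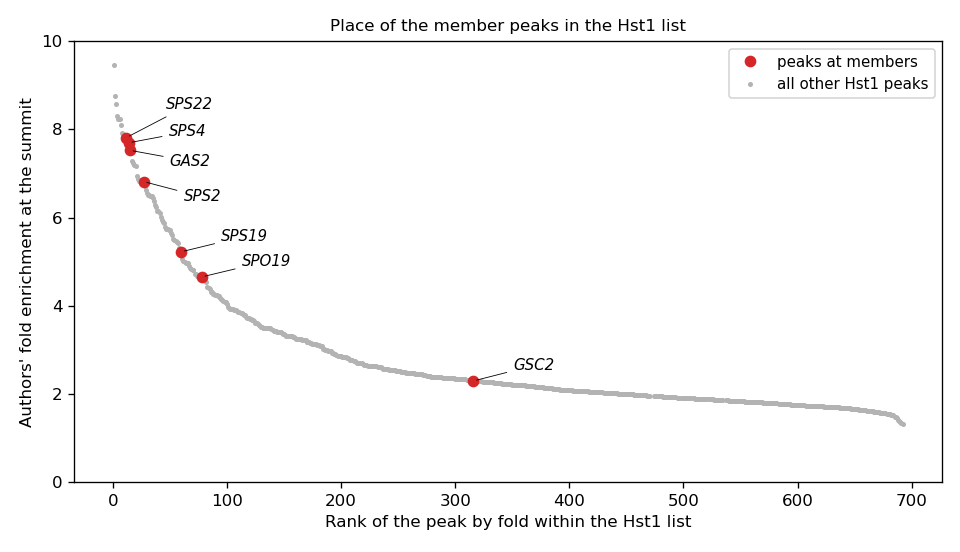
The authors' fold of each Hst1 peak against its rank in the list (grey), with the 7 peaks at the spore surface and glucan genes in red and named. Of these, 6 lie within rank 78, with folds of 4.65 to 7.81, and GSC2 lies at rank 316 with a fold of 2.29.

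Most of the 7 summits lay close to a start. The distance from summit to the nearest annotated start of any protein-coding gene was 3 bp at GSC2, 22 bp at SPS2, 40 bp at SPS22, 42 bp at the SPS4 peak, 71 bp at the SPS19 peak, 87 bp at GAS2 and 262 bp at the SPO19 peak. So 6 of 7 peaks (85.7%) had their summit within 100 bp of a start, against 7.45% of the 685 other Hst1 peaks, whose median distance was 374 bp. Of the 21 peaks at the other spore genes described further on and at none of the 10, 7 (33.3%) had a summit that close, with a median of 181 bp. Among the 153 other peaks of the strongest 159, the share was 11.1% and the median 328 bp. The limit of 100 bp was set once these distances were known. For the SPS4, SPS19 and SPO19 peaks the nearest start was that of another gene (YOR314W, SPS18 and TAF14). Those 3 summits lay 127 bp from the start of SPS4, 230 bp from that of SPS19 and 649 bp from that of SPO19. The 7 peaks, like the 21, were picked because their summit lay upstream of or inside a listed gene. The 685 and the 153 had no such condition and include summits up to 7778 bp from a start. Part of the contrast with them is therefore built in. Measured to the gene's own start, the 4 upstream summits lay 40 to 230 bp away (median 107 bp). The median was 180.5 bp over 18 other spore genes with an upstream summit and 321 bp over all 505 such genes.

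Peak coverage was also counted base by base. The first coding base was covered by an Hst1 peak in 6 of the 10 genes (60.0%), in 63.3% of the 30 other spore genes and in 3.37% of all genes. At 200 bp into the coding region, coverage was 6 of 10 (60.0%), 60.0% and 2.47%. Coverage of the start was therefore as frequent among other spore genes. Over all genes coverage was highest 400 bp upstream, at 9.30%.

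**Figure D3:**
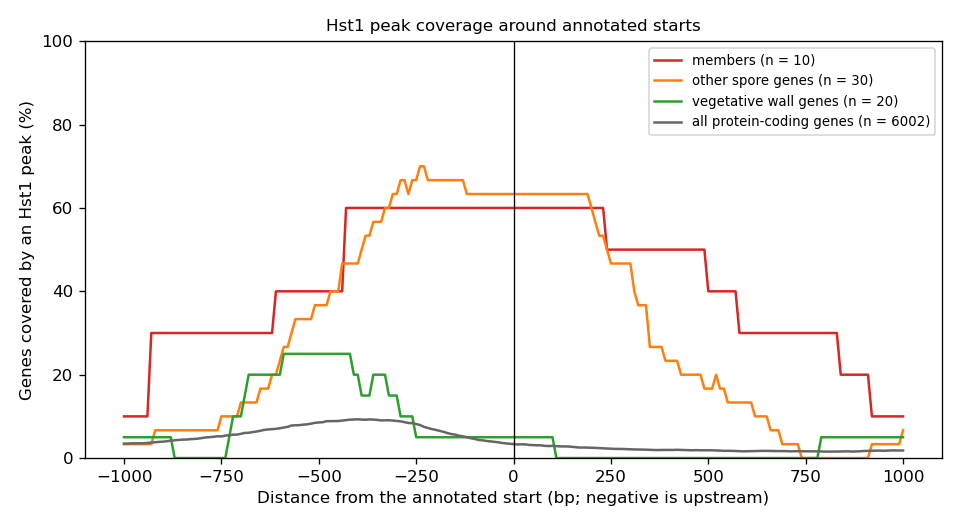
Share of genes (%) covered by an Hst1 peak at each distance from the annotated start, for the 10 genes (red), 30 other spore genes (orange), 20 vegetative wall genes (green) and all 6002 protein-coding genes (grey). The red line is flat at 60.0% across the start, the orange line reaches 70.0% at 240 bp upstream, and the grey line peaks at 9.30% at 400 bp upstream.

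The space in front of the genes varied among them. The gap to the upstream protein-coding neighbour was 110 bp at GAS2, 168 bp at SPS4, 262 bp at SPS2, 300 bp at SPS19, 372 bp at SPO19 and 437 bp at SPS22. It was 609 bp at GAS4, 720 bp at SPR1, 794 bp at GSC2 and 926 bp at FKS3. GSC2, which had a peak, had a longer gap than GAS4 and SPR1, which had none, and the other 6 genes with a peak had shorter gaps than all 3 without. A limit of 600 bp was set from these values. Of the other protein-coding genes, 13.8% of those with a gap of 600 bp or more had an upstream Hst1 summit, against 5.43% of those with a shorter gap. Neighbour orientation did not sort the members, since divergent pairs included SPS4 and SPS19 with a peak and FKS3 without, and tandem ones included GAS2 with a peak and GAS4 without.

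The other lists put these counts in context. Like the 10 genes, they were chosen with earlier results of these data known, so the shares are descriptive only. Of 30 other spore wall and spore formation genes, 18 (60.0%) had an Hst1 summit upstream and 20 (66.7%) upstream or in the body, with 0 for Sir2 and 0 for the mock IP. The strongest were SMK1, a spore wall MAP kinase gene (fold 8.57, summit 48 bp upstream), CDA2, a chitin deacetylase gene (6.87, 97 bp upstream), OSW1, an outer spore wall gene (6.51, 61 bp into the body), and SPO75, a spore formation gene (6.49, 305 bp upstream). CRR1, a cell wall glycosidase gene of spores, had 2.37, and CHS3, the chitin synthase gene that also serves vegetative cells, had 2.02. The 10 genes thus had a share of 70.0% upstream or in the body, beside 66.7% in this list. The list includes SPS18, whose summit is the one counted at SPS19, so that peak enters both shares. It also enters both sides of the comparisons of start coverage and of distance to the gene's own start above.

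Of 20 vegetative glucan and cell wall genes, 2 had an upstream Hst1 summit (10.0%), close to the 8.41% of all genes. With any part of a peak upstream or in the body counted, there were 6 (30.0%), against 14.6% of all genes. At 420 to 590 bp upstream 5 of the 20 (25.0%) were covered at each position counted, against 7.33 to 9.21% of all genes. That stretch is where coverage of the 20 was highest, and it reaches past the 500 bp. At the first coding base 5.0% of the 20 were covered, against 3.37% of all genes. The 2 with a summit were CWP1, a cell wall mannoprotein gene (fold 2.05), and SMI1, a regulator of glucan synthesis also called KNR4, with a fold of 1.79 and its summit 500 bp upstream at the edge of the stretch counted. The vegetative relatives FKS1, GAS1, GAS3, GAS5, EXG1, EXG2, ECM33 and PST1, were without a summit of any IP. Sir2 and the mock IP had a summit at 0 of the 20.

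**Figure D4:**
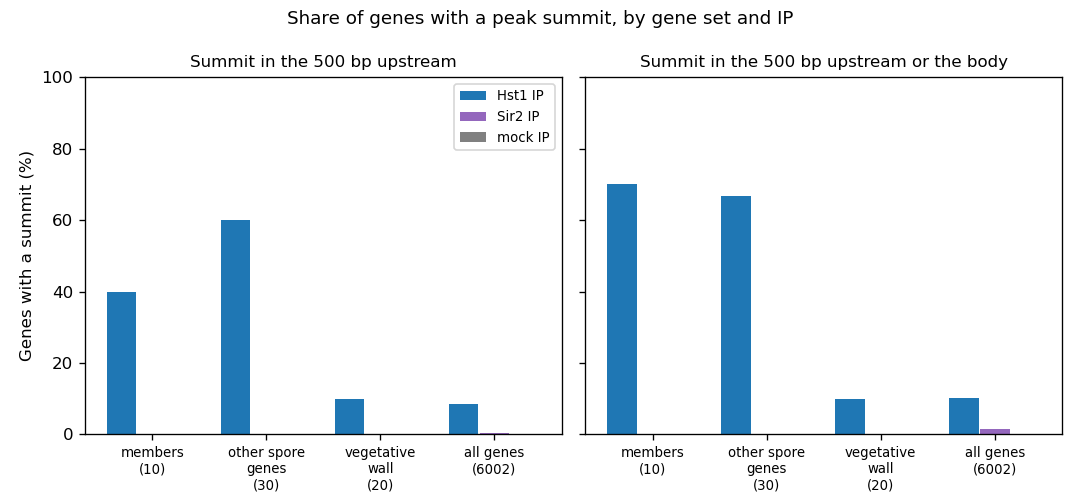
Share of genes (%) with a peak summit in the 500 bp upstream (left) and upstream or in the body (right), for the 10 genes, 30 other spore genes, 20 vegetative wall genes and all 6002 protein-coding genes, in the Hst1 IP (blue), the Sir2 IP (purple) and the mock IP (grey). The Hst1 bars of the 10 genes stand at 40.0% and 70.0%, against 8.41% and 10.2% of all genes, and the Sir2 and mock IP bars of all 3 lists are at 0.

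The gene whose Hst1 pattern was most like that of SPS22, the member of highest fold, was YOR314W, which shares the SPS4 summit. Likeness was the sum of the difference in log2 fold and the difference in summit distance in units of 100 bp, over 476 gene and summit pairs without Sir2 or mock IP peaks. RRT5 (fold 6.94, 41 bp upstream) and SMK1 came next, with sums of 0.18 and 0.21, against 0.042 for YOR314W.

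The distance to the nearest Sir2 peak varied widely among the 10 genes. The nearest one lay 5.7 kb from GAS2 (XII, 823414 to 823637, fold 2.97) and 9.9 kb from GSC2 (fold 2.10), and 24.4 to 242.9 kb from the other 8. The median was 41.8 kb (interquartile range 27.3 to 142 kb), where the 5824 other genes without a Sir2 peak had 67.4 kb (27.7 to 139 kb). By median the 10 genes were thus no farther from Sir2 than those. The 10 genes lay 37.9 to 537.0 kb from the nearest chromosome end, the right end being taken as the last gene or peak.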

How the data were processed

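ChIP-seq peak lists of 3 IPs were used. Per the labels' protocols, cells (50 OD) were treated with 10 mM dimethyl adipimidate, then with 1% formaldehyde, each for 1 hour, and libraries were read for 50 cycles, single-end. Per the submitters' processing notes, the authors used BWA and MACS2 on sacCer3; versions, cutoffs, the control library of each call and the pooling of the 2 technical replicates named in the design text are not stated in these sources. If the mock IP was the control, background shared with it would already have been removed. The deposited values are the fold (a ratio) at the summit, −log10 p and −log10 q, and a score, which is the −log10 q times 10, truncated, in every peak. Depth is unknown, and no interval was formed.

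Starts were made 1-based, and a summit is the start plus its offset. Genes came from a RefSeq table of R64, the assembly behind sacCer3, with strand from the locus tag; 3 list symbols (KNR4, OSW4, OSW5) were matched as synonyms. Overlap means at least 1 bp. Python 3.11.15 and pandas 2.3.3 were used, and the assignment of summits was checked on simulated peaks. No test was run. The genes, lists and distances were chosen with earlier results of these data known. The named genes were all members, genes sharing their summits, their vegetative relatives, bound list genes and the 3 most alike genes. IMO32 and YLR342W-A were named as neighbours, after their positions were seen.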

Additional observations from a re-analysis of the deposited data

How the results depend on the processing

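The Hst1 count of 4 genes with an upstream summit was also 4 with 250 bp, a −log10 q of at least 10, the strongest 50% of peaks, and the stretch up to the nearest annotated gene. Leaving out peaks that overlap a mock IP peak repeats the main counts for Hst1, since 0 Hst1 peaks overlapped one. The count was 5 with 1000 bp. That added GSC2 through its further peak (fold 2.06, summit 814 bp upstream and inside IMO32), not the peak at its start. The count was 6 with any part of a peak or, chosen after the data were seen, with the first 50 bp of the body added. With any part of a peak upstream, 749 of all 6002 genes were counted. Apart from the rules on any part of a peak, all genes were not counted under the alternatives in this section. Whether the excess over all genes holds under those alternatives cannot be read from these counts. The count of 7 genes upstream or in the body was 7 with 250 or 1000 bp, a −log10 q of at least 10, the strongest 50%, and any part of a peak. It was 6 with only as many Hst1 peaks as Sir2 peaks. Chosen after the data were seen, giving each summit only to the gene of nearest start left 4 (SPS2, SPS22, GAS2 and GSC2), because the SPS4, SPS19 and SPO19 summits lie nearer to YOR314W, SPS18 and TAF14. Of FKS3 and GSC2, 1 was occupied, and 0 when only as many Hst1 peaks as Sir2 peaks were kept by fold (also added later), since the GSC2 peak ranks below it. The counts of 0 for Sir2 and for the mock IP were 0 in all alternatives run, but none of these could have changed them. The closest Sir2 peak lay 5.7 kb and the closest mock IP peak 201.7 kb from the upstream stretch and body of a member (both at GAS2). No paired analysis was possible because each IP had 1 list and no replicate numbers. The motif counts planned for promoters were not run, since no sequence was used here.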
